A study of Homo sapiens with 4 samples.

Results

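The 10 growth factor receptor tyrosine kinase genes EGFR, ERBB2, ERBB3, MET, AXL, IGF1R, INSR, FGFR1, EPHA2 and DDR1 were examined in LV-M100 cells depleted of the spliceosomal protein SNRNP40. They were taken by name, with earlier results of these data known, and every row of the deposited table that carries one of these symbols was taken. The 10 genes are 10 of 23217 gene symbols, and their 84 transcripts are 84 of 44578 listed transcripts. LV-M100 is a clonal, lowly variable subpopulation of MDA-MB-231, an established human breast cancer line, so the results describe 1 clone. Total RNA of 4 libraries was sequenced after removal of ribosomal RNA, 48 h after transfection with Lipofectamine. Of the 2 control libraries, 1 received the negative control siRNA NC1 and the other the BLOCK-iT Fluorescent Oligo, and the 2 SNRNP40 libraries received siSNRNP40 #1 and siSNRNP40 #2. The labels name no other treatment, and the comparison asks which transcripts depend on SNRNP40.

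Receptor tyrosine kinases span the plasma membrane once, bind a ligand outside the cell and phosphorylate tyrosines on each other and on adaptor proteins inside it. The adaptors lead to the RAS-ERK and PI3K-AKT pathways, and ubiquitin ligases and phosphatases end the signal. EGFR, ERBB2 and ERBB3 belong to one family, in which ERBB2 has no known ligand of its own and ERBB3 has little kinase activity and signals through its partners. MET is the receptor of hepatocyte growth factor, AXL of GAS6, FGFR1 of fibroblast growth factors, and IGF1R and INSR of the insulin-like growth factors and insulin. EPHA2 and DDR1 carry the same kind of kinase, but EPHA2 binds ephrins on neighbouring cells and DDR1 binds collagen, so the name growth factor receptor fits them less closely. High AXL, MET and EGFR with low ERBB3 is known of mesenchymal, triple-negative breast cancer lines such as MDA-MB-231.

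The deposited values are FPKM (fragments scaled to the length of the transcript in kilobases and to the mapped fragments), 1 per transcript and condition, in which the 2 libraries of a condition are pooled. No value has a replicate error, no test between the conditions is possible, and the depth of the libraries is unknown. Ratios are log2 values of the depleted over the control FPKM with nothing added to either, and a gene's level is the FPKM summed over its transcripts. SNRNP40 itself was listed at 40.4 FPKM with control siRNA and at 6.12 after depletion (log2 ratio -2.72). Both conditions summed to nearly the same FPKM, 516056 and 517152. Since FPKM is scaled to the mapped fragments, these totals cannot compare the depth or the RNA content of the conditions. Markers known to be high in MDA-MB-231 (VIM, CD44, MSN, CAV1 and ZEB1) had mean levels from 27.1 to 742 FPKM, whereas ESR1, PGR and CDH1, markers of luminal cells, were at most 0.0701. The luminal markers KRT8, EPCAM and GATA3 were nevertheless present, at mean levels of 127, 10.3 and 1.25 FPKM. Of the leukocyte markers PTPRC was listed at 0 and CD14 and CD3E were below 1 FPKM, and of the fibroblast markers DCN was listed at 0 and PDGFRB had a mean of 2.05 FPKM. The summed leukocyte markers were at 0.466 FPKM with control siRNA and 0.309 after depletion, the summed fibroblast markers at 2.52 and 2.12, and their part in the receptor values was not tested. All 12 of 12 interferon-stimulated genes examined had a higher value after SNRNP40 siRNA, against 50.5% of all genes with a mean of at least 1 FPKM. Their median log2 ratio was 0.70, and their summed level was 570 FPKM with control siRNA and 911 after depletion. This list was chosen with earlier results of these data known, and the part of its genes in the receptor values was not tested.

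The short coding differences annotated among the receptors' transcripts are shown because the results turn on how FPKM is divided among transcripts. Each was read from GRCh37, which has the coordinates of the hg19 build used by the authors, as the only difference in coding sequence between the canonical GENCODE transcript of a gene and another one in the consensus coding set. FGFR1, which has 13 transcripts in that set, was left out, so its coding differences are not shown. Capitals mark the alternative stretch and lower case the 12 coding bases on either side, read 5′ to 3′ along the gene. INSR exon 11 (minus strand, chr19:7150508-7150543, 36 bases), AXL exon 10 (plus strand, chr19:41745599-41745625, 27 bases) and DDR1 exon 12 (plus strand, chr6:30863181-30863291, 111 bases) are whole exons of the canonical transcript. The stretch of MET (plus strand, chr7:116399391-116399444, 54 bases) lengthens exon 10, and that of DDR1 at chr6:30865138-30865155 (plus strand, 18 bases) lengthens exon 14, both in a transcript other than the canonical one. Only stretches that are a multiple of 3 bases, within set length limits and with shared coding sequence on both sides were kept. These traits therefore follow from the selection. Exon 11 of INSR is known to distinguish the insulin receptor forms A, without it, and B, with it.
INSR exon 11: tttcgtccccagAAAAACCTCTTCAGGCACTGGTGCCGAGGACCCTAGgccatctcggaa
AXL exon 10: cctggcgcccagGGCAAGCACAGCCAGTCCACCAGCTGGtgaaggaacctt
MET exon 10: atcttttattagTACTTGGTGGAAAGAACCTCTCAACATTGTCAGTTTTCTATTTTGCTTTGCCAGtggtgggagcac
DDR1 exon 12: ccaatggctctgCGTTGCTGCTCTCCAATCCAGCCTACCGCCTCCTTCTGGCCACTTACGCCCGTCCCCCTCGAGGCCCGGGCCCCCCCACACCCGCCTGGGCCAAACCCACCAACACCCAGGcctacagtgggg
DDR1 exon 14: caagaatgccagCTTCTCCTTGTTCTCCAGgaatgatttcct

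The deposited table gives every row of a gene at one locus the same coordinates and no RefSeq or Ensembl name, so it cannot be said which row carries which of these stretches. In what follows the transcripts of a gene are therefore numbered by their mean FPKM over both conditions. The siRNAs against SNRNP40 were 18-base strands identical in sequence to the coding strand, on the minus strand of chromosome 1. The target of siSNRNP40 #1 lies in the coding sequence of exon 5 (chr1:31754224-31754241), and that of siSNRNP40 #2 in the coding sequence of exon 2 (chr1:31766067-31766084).
siSNRNP40 #1: GGAAUAGACAAUGAUAUC
siSNRNP40 #2: GGAUUUGACCGACUGAUA

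AXL was the most abundant and ERBB3 the least abundant of the 10 receptors in both conditions. AXL, on chromosome 19 from 41725108 to 41767671, was at 125 FPKM with control siRNA and 115 after SNRNP40 depletion, which was 48.6% and 45.3% of the FPKM of all 10 receptors. MET followed at 40.1 and 35.9 FPKM (chromosome 7, 116312459 to 116438440). AXL thus exceeded MET by 3.11 times and ERBB3 by 132 times with control siRNA.

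FGFR1, EPHA2 and EGFR formed the next group. FGFR1 (chromosome 8, 38268656 to 38326352) was at 24.6 FPKM with control siRNA and 24.8 after depletion. EPHA2 (chromosome 1, 16450832 to 16482582) was at 23.0 and 27.4 FPKM. EGFR (chromosome 7, 55086725 to 55275031) was at 18.3 and 22.7 FPKM. The order of these 3 receptors was not the same in both conditions, since EPHA2 lay below FGFR1 with control siRNA and above it after depletion. Whether any neighbours in the order differ beyond the spread between libraries could not be tested.

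The remaining 5 receptors were lower. DDR1 (chromosome 6, 30851861 to 30867933) was at 13.5 FPKM with control siRNA and 14.0 after depletion, and ERBB2 (chromosome 17, 37844393 to 37884915) was at 6.56 and 7.42. INSR (chromosome 19, 7112266 to 7294011) was at 3.63 FPKM with control siRNA and 3.66 after depletion. IGF1R (chromosome 15, 99192761 to 99507759) was at 1.40 and 1.53, and ERBB3 (chromosome 12, 56473809 to 56497291) at 0.948 and 1.40. Among the 12334 genes with a mean level of at least 1 FPKM and a finite ratio, AXL stood at percentile 94.9 of the mean level and MET at 81.7, while IGF1R stood at 6.02 and ERBB3 at 2.51. Summed over the 10 receptors the level was 257 FPKM with control siRNA and 254 after depletion.

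**Figure D1:**
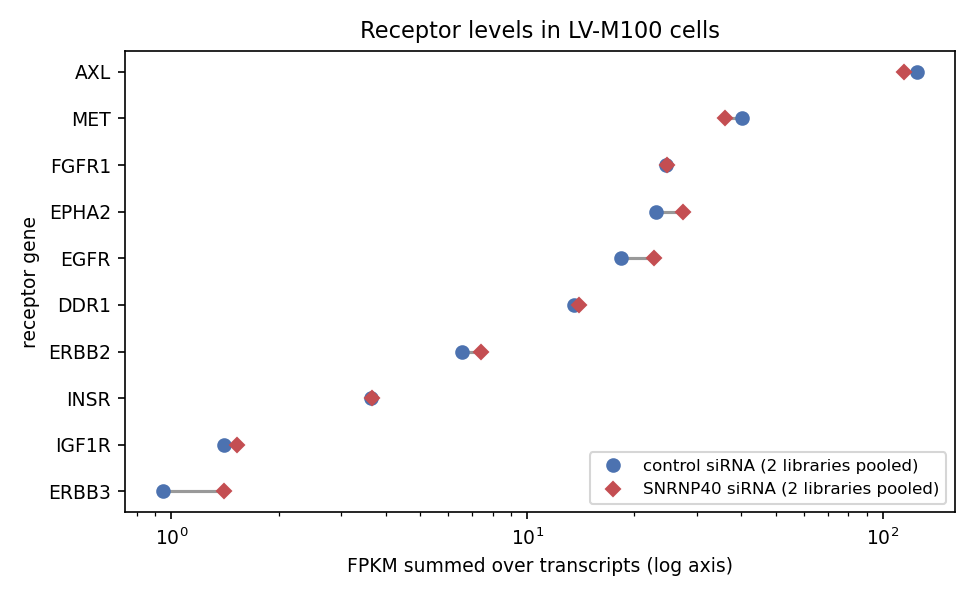
Summed FPKM of each receptor (x axis, log scale) with control siRNA (circles) and SNRNP40 siRNA (diamonds), 1 pooled value of 2 libraries a condition, ordered by the control value. The levels run from 0.948 FPKM for ERBB3 to 125 for AXL, and the 2 marks of a gene lie close together compared with that range.

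Summed per gene, the receptors differed little between the conditions. In 8 of the 10 the value was higher after SNRNP40 siRNA, and in MET and AXL it was lower. ERBB3, which pairs with ERBB2 and EGFR, had the largest ratio (log2 0.57, or 48.1% higher), followed by EGFR (0.31, 23.8% higher) and EPHA2 (0.26, 19.4% higher). The ratio was 0.18 for ERBB2, 0.13 for IGF1R, 0.048 for DDR1, 0.015 for INSR and 0.0096 for FGFR1. The log2 ratio of MET was -0.16, a difference of -10.5%, and that of AXL was -0.12, a difference of -7.95%.

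None of the 10 receptors passed an absolute log2 ratio of 1, a threshold that 1.47% of the 12334 genes passed. ERBB3 alone, 1 of 10 receptors, passed 0.5, against 10.3% of the 12334 genes, so the share of receptors past this limit was at the background. The median log2 ratio of the 10 receptors was 0.088, against 0.0034 over all genes, of which 50.5% had a higher value. The median absolute log2 ratio was 0.143 for the receptors and 0.170 for all genes.

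Ratios of low values vary more, and ERBB3 is among the lowest. In the 3775 genes with a mean level from 1 to 5 FPKM, where ERBB3, IGF1R and INSR lie, the median absolute log2 ratio was 0.247 and 20.4% of genes passed 0.5. With 1 FPKM added to both values the log2 ratio of ERBB3 became 0.30, and that of its first transcript alone was 0.46, both below the limit of 0.5. In the 6872 genes from 5 to 50 FPKM, the range of EGFR, ERBB2, MET, FGFR1, EPHA2 and DDR1, the median absolute log2 ratio was 0.153 and 6.33% of genes passed 0.5. The median of these 6 receptors was 0.169. The absolute ratio of AXL, 0.12, compares with a median of 0.133 in the 1687 genes of at least 50 FPKM.

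**Figure D2:**
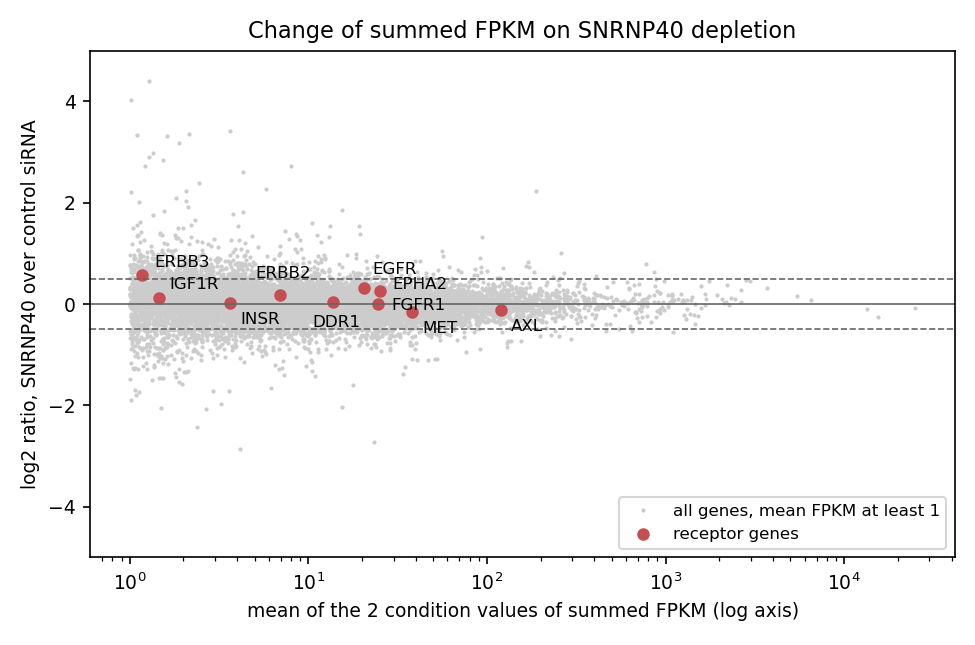
Log2 ratio of summed FPKM (SNRNP40 over control siRNA, y axis) against the mean of both condition values (x axis, log scale) for all 12334 genes with a mean of at least 1 FPKM (grey) and the 10 receptors (red); dashed lines mark ratios of -0.5 and 0.5. The grey cloud widens toward low levels, where ERBB3 lies above the upper line, and the other 9 receptors lie between the lines.

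The transcripts of a receptor often had ratios of opposite sign while their sum was nearly equal. Of the 84 transcripts, 51 were listed at 0 in both conditions and 6 in 1 condition, 3 of them with control siRNA and 3 after depletion. A mean of at least 1 FPKM and a finite ratio was found for 18 transcripts of 9 genes, and for none of ERBB3. Of these 18, 10 had a higher and 8 a lower value after depletion, and 3 (16.7%) were past an absolute log2 ratio of 1, 1 of DDR1 and 2 of FGFR1, all higher. That direction depends on the limit of 1 FPKM, since the second transcript of INSR (mean 0.620 FPKM, log2 ratio -5.003) and the fifth of FGFR1 (0.962, -1.60) lie below it and were lower. Over all 16650 transcripts that met the same criteria, 10.5% passed. Of the 18, 16 belong to genes with several listed transcripts, and all 3 past 1 are among these 16. Over all such genes 16.9% of 9600 transcripts passed, so the number of receptor transcripts past 1 was near that share. The median absolute log2 ratio was 0.556 for the 16 receptor transcripts and 0.340 for the 9600.

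**Figure D3:**
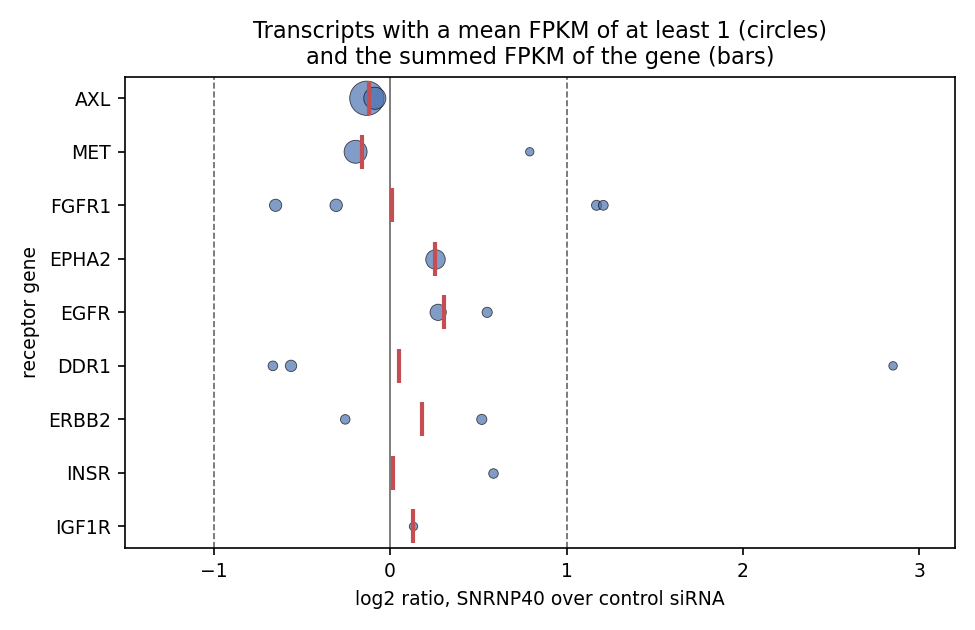
Log2 ratio (SNRNP40 over control siRNA, x axis) of the 18 receptor transcripts with a mean of at least 1 FPKM (circles, area rising with mean FPKM) and of the summed FPKM of their gene (red bars), with dashed lines at -1 and 1. Circles of DDR1, FGFR1 and ERBB2 lie on both sides of a bar close to 0, and 3 circles, of FGFR1 and DDR1, lie beyond 1.

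To describe the division among transcripts without the level, the share of each transcript in the gene's FPKM was computed in both conditions. The share shift of a gene is the percentage of its FPKM that lies in other transcripts after depletion. It exceeded 20% for DDR1 (41.6%), INSR (32.1%) and FGFR1 (24.6%), that is 3 of 8 receptors with several listed transcripts, or 37.5%. Among 5282 genes with several listed transcripts and a mean level of at least 1 FPKM, 22.5% exceeded it. The median share shift was 8.71% for the 8 receptors and 7.66% for those genes. It was 13.1% for ERBB2, 4.28% for ERBB3, 3.23% for EGFR, 2.41% for MET and 0.630% for AXL. The shift was larger in genes with more listed transcripts, with a median of 4.37% in 2510 genes with 2 transcripts and 18.2% in 197 genes with 10 or more.

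**Figure D4:**
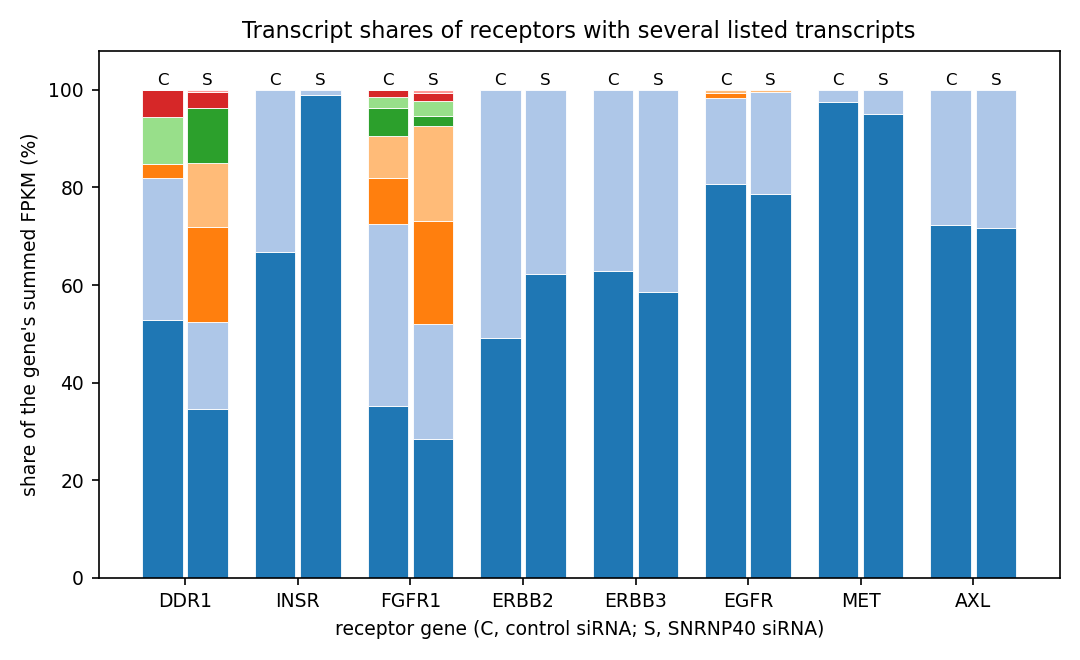
Share of each transcript in the summed FPKM of its gene (y axis, percent) with control siRNA (C) and SNRNP40 siRNA (S) for the 8 receptors with several listed transcripts, from the largest share shift on the left to the smallest; each colour is 1 transcript of the gene, ordered from the bottom by mean FPKM. The bars of DDR1, INSR and FGFR1 differ between C and S, with share shifts of 41.6%, 32.1% and 24.6%, and those of AXL and MET are nearly alike.

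INSR, the insulin receptor, has 2 listed transcripts, and nearly all of its FPKM lay in the first of them after depletion. Its first transcript was at 2.43 FPKM with control siRNA and 3.63 after depletion (log2 ratio 0.58). Its second transcript was at 1.202 and 0.0375 FPKM. The first thus made up 66.9% of INSR with control siRNA and 99.0% after depletion, while the sum of both differed by 1.03%. The second transcript has a mean below 1 FPKM and all of these values lie below 5, and 13.9% of the 2510 genes with 2 transcripts had a share shift above 20%. The exon 11 shown above separates the only annotated consensus forms of INSR, but which listed row holds it is not given.

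FGFR1, a receptor of fibroblast growth factors, has 15 listed transcripts, of which 9 were above 0 in at least 1 condition. The first transcript was at 8.68 FPKM with control siRNA and 7.02 after depletion (log2 ratio -0.31), and the second at 9.15 and 5.84 (-0.65). Both were lower after depletion, and together they held 72.5% of the gene's FPKM with control siRNA and 51.9% after it. The third transcript was at 2.34 and 5.26 FPKM (1.17), and the fourth at 2.09 and 4.82 (1.21). These were both higher, with 17.99% and 40.7% of the gene. The fifth transcript was at 1.45 FPKM with control siRNA and 0.479 after depletion, and each of the other 4 was below 1 FPKM in both conditions. The leading transcript was the second with control siRNA and the first after depletion.

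DDR1, the collagen receptor, lies in the major histocompatibility complex, and its rows include copies of the region in the hg19 build. Of its 53 transcripts, 43 are on 5 alternative haplotypes and all of those were listed at 0, so the 10 on chromosome 6 hold the whole level. The first transcript was at 7.15 FPKM with control siRNA and 4.84 after depletion (log2 ratio -0.56), and the second at 3.95 and 2.49 (-0.66). Together they made up 81.9% and 52.4% of the gene. The third transcript was at 0.381 and 2.75 FPKM (2.85), and the fourth and the fifth were listed at 0 with control siRNA and at 1.82 and 1.60 FPKM after depletion. The sixth was at 1.30 FPKM with control siRNA and listed at 0 after depletion. These values rest on thin data, since 4 of the 10 rows on chromosome 6 carry the LOWDATA mark of cuffdiff, for loci with too few or too complex fragments, and those rows hold 81.9% of the control level and 63.8% of the level after depletion. No transcript of the other 9 receptors has that mark. Both transcripts of ERBB3, the first of FGFR1 and the sixth of DDR1 carry the mark NOTEST, for too few alignments to test. Further rows of EGFR, FGFR1 and DDR1 with a value above 0 carry NOTEST too, each below 1 FPKM in both conditions. Among transcripts of at least 1 FPKM alone, the share shift of DDR1 was 23.9% in place of 41.6%, and its summed log2 ratio was -0.19.

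ERBB2, the target of the antibody trastuzumab, has 2 listed transcripts of similar level. The first was at 3.23 FPKM with control siRNA and 4.62 after depletion (log2 ratio 0.52), and the second at 3.33 and 2.79 (-0.25). The leading transcript was thus the second with control siRNA, with 50.8%, and the first after depletion, with 62.4%. Exons of MIEN1 and PGAP3, on the opposite strand, overlap exons of ERBB2 in the annotation, and MIEN1 was at 9.71 and 8.44 FPKM. Whether the authors' quantification used the strand is not given in the sources used here, and the part of MIEN1 reads in ERBB2 was not tested. Annotated exons on the opposite strand overlap those of EGFR, AXL and FGFR1 as well.

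EGFR, the receptor of epidermal growth factor, was divided in nearly the same way among its 4 listed transcripts. The first was at 14.8 FPKM with control siRNA and 17.8 after depletion (log2 ratio 0.27), and the second at 3.24 and 4.74 (0.55). Both were higher, and the other 2 were below 0.2 FPKM in both conditions. ERBB3 has 2 listed transcripts, and both had higher values, 0.596 and 0.822 FPKM for the first and 0.352 and 0.581 for the second.

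MET and AXL, the most abundant receptors, also had the smallest share shifts of the 8 receptors with several transcripts. The first transcript of MET was at 39.1 FPKM with control siRNA and 34.1 after depletion (log2 ratio -0.20), and held 97.4% and 95.0% of the gene. The second transcript of MET was at 1.03 and 1.79 FPKM (0.79). AXL had 90.2 and 82.3 FPKM in its first transcript (-0.13) and 34.5 and 32.5 in its second (-0.087). The first thus held 72.3% of AXL with control siRNA and 71.7% after depletion. EPHA2 and IGF1R are listed with 1 transcript each, so nothing can be said of their forms.

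The other genes of the pathway were taken from lists by role, with a mean of at least 1 FPKM. Of 30 ligand genes, 14 reached that level, 7 with a higher and 7 with a lower value after depletion, and 3 passed an absolute log2 ratio of 0.5. The most abundant were GAS6, the ligand of AXL, at 51.8 FPKM with control siRNA and 56.7 after depletion (0.13), HBEGF at 30.0 and 39.8 (0.41) and TGFA at 32.5 and 21.96 (-0.57), the last 2 being ligands of EGFR. NRG1, the neuregulin that binds ERBB3, was at 7.60 FPKM and 12.1 after depletion (0.68), and BTC, another EGFR ligand, at 1.64 and 0.506 (-1.70). HGF, the ligand of MET, and INS were listed at 0 in both conditions, and IGF1, IGF2 and FGF2 were below 1 FPKM. The value of TGFA came in part from its second transcript, at 5.82 and 0.00155 FPKM, since the first was at 26.7 and 21.96 (-0.28), and that second transcript carries the NOTEST mark.

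The 48 other receptor tyrosine kinases included 16 with a mean of at least 1 FPKM. The most abundant were RYK, a receptor of WNT ligands, at 25.6 FPKM with control siRNA and 21.6 after depletion, EPHB2 at 19.3 and 17.8, and EPHB4 at 14.8 and 14.0. All of these lay below AXL and MET, and below FGFR1 with the exception of RYK with control siRNA. Of the 16, 7 were higher and 9 lower, and 3 passed 0.5. These were PTK7 at 1.14 and 1.67 FPKM (0.55), CSF1R at 1.98 and 0.907 (-1.13) and FGFR2 at 1.73 and 0.519 (-1.74), all below 2 FPKM. The FGFR2 value stands in a single row above 0, which carries the LOWDATA mark.

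Among 24 adaptors and effectors, 22 reached 1 FPKM, and 16 of them had a lower value after depletion. PTPN11, the phosphatase SHP2 that carries the signal to RAS, was at 68.3 and 59.0 FPKM (-0.21), CRK at 63.5 and 62.7 (-0.020) and SHC1 at 28.8 and 24.9 (-0.21). The docking proteins IRS2 of the insulin receptor, at 5.37 and 3.44 FPKM (-0.64), and GAB1, at 1.97 and 1.25 (-0.65), passed 0.5. The median log2 ratio of the 22 was -0.067, against 0.0034 over all genes, of which 50.5% had a higher value. Whether these differences go beyond the spread between libraries could not be tested.

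Of 22 negative regulators and turnover genes, 21 reached 1 FPKM, with 7 higher and 14 lower values and a median log2 ratio of -0.094. Over all genes, 50.5% had a higher value. ERRFI1, also called MIG6, an inhibitor of the EGFR kinase, was the most abundant with control siRNA and the only 1 past 0.5, at 90.7 FPKM and 58.0 after depletion (-0.65). The phosphatases PTPN2, at 63.3 and 72.1 FPKM (0.19), and PTPN12, at 44.9 and 49.6 (0.14), were next by mean level. The ubiquitin ligase CBL was at 5.67 and 5.30 FPKM (-0.098). All 6 genes of shedding, processing and folding reached 1 FPKM and none passed 0.5. The chaperones HSP90AB1 at 631 and 688 FPKM (0.13), HSP90AA1 at 554 and 422 (-0.39) and CDC37 at 179 and 208 (0.22), which hold receptor kinases in a folded state, were the most abundant. Over the 5 lists 9 of 79 genes (11.4%) passed 0.5, close to the 10.3% of all genes.

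**Figure D5:**
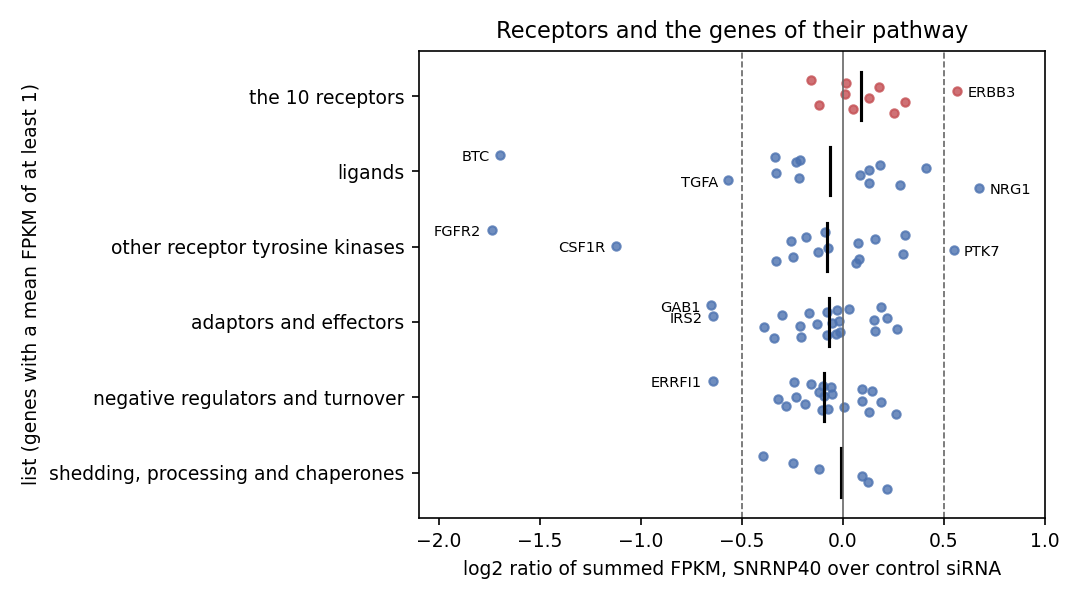
Log2 ratio of summed FPKM (SNRNP40 over control siRNA, x axis) for the 10 receptors and for the genes of the 5 pathway lists with a mean of at least 1 FPKM (1 point a gene, spread vertically only to be seen); black bars are medians and dashed lines mark -0.5 and 0.5. Most points lie between the lines, and the named genes, 9 of 79 in the lists and ERBB3 among the receptors, lie outside.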

How the data were processed

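Linkers and low-quality bases were removed by the authors with cutadapt 1.2.1, alignment to hg19 used TopHat 2.0.8, and transcripts were assembled with Cufflinks and cuffmerge and quantified with cuffdiff 2.0.2. Deposited FPKM values are model estimates for single transcripts, which divide shared fragments among overlapping transcripts, and the authors averaged independent siRNA replicates into 1 value a condition. The authors' fold changes, p-values and q-values, also in the table, were not used. The receptors and gene lists were chosen with earlier results of these data known.

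Rows were matched by gene symbol and FPKM summed per symbol. Counts used a mean of at least 1 FPKM, an absolute log2 ratio above 1 (transcripts, genes) or 0.5 (genes), and a share shift above 20%. The 69 transcripts marked FAIL, none of a receptor, were left out of counts of transcripts. All receptors were named, and from each list the 3 most abundant genes and those past 0.5; other genes were named after their values were seen. Locus starts, counted from 0 in the table, are given from 1. Exons came from GENCODE release 44 on GRCh37. Sums, ratios and share shifts were tested on simulated data. Python 3.11.15, numpy 2.4.6, pandas 2.3.3 and matplotlib 3.10.9 were used.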

Additional observations from a re-analysis of the deposited data

How the results depend on the processing

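No paired analysis was possible because each condition has 1 pooled column without a replicate, and for the same reason no replicate could be left out. Depth is unknown. Values counted as moved when a log2 ratio changed by at least 0.1, a share shift by 5 points or more, or a count by over 1.5 times. The number of receptors past 0.5, 1 as reported, was 0 with a pseudocount of 1 and 3 when only the transcript with the highest mean stood for its gene, where the median log2 ratio was 0.191 in place of 0.088. Those 3 were ERBB2 (0.52), INSR (0.58 in place of 0.015) and DDR1, and ERBB3, at 0.46, was no longer past 0.5. That setting turned FGFR1 to -0.31 and DDR1 to -0.56, and summing only transcripts with a mean of at least 1 FPKM, which leaves no transcript of ERBB3, turned DDR1 to -0.19. Centring and upper-quartile scaling turned none of the 10 ratios. Without a filter 6 of 27 receptor transcripts were past 1, in place of 3 of 18. At a mean of at least 0.1 FPKM 5 of 25 were, of which 1 of INSR and 1 of FGFR1 were lower. The count was 0 of 8 at 5 FPKM and 1 of 18 with a pseudocount of 1, and 10 of 18 passed 0.5. The share over all transcripts was not computed at these settings, so these counts cannot be set against a background. The number of receptors with a share shift above 20% was 2 in place of 3 among transcripts of at least 1 FPKM, and the median moved by less than 5 points. At that setting INSR has a single transcript left and ERBB3 none, so fewer than the 8 receptors were counted. The share over all genes was not computed there. The shift of DDR1 was 23.9% among transcripts of at least 1 FPKM and 30.1% with 0.1 FPKM added to each. Without a filter, at 0.1 FPKM, at 5 FPKM and with a pseudocount of 1, the genes past 1 were 1870, 857, 49 and 74 instead of 181, and those past 0.5 were 4183, 2848, 501 and 711 instead of 1270. The pathway genes past 0.5, 9 of 79 as reported, were 31 of 114 (27.2%) without a filter, against 24.1% of all genes. They were 19 of 100 (19%) at 0.1 FPKM, against 18.3%, and 3 of 53 (5.66%) at 5 FPKM, against 5.85%. With a pseudocount of 1 they were 7 of 79 (8.86%), against 5.76%. They were 13 of 76 (17.1%) when the most expressed transcript stood for its gene, a setting without a share over all genes. SNRNP40 was at -2.54 with a pseudocount of 1. The filters changed the number of genes tested, from 12334 to 17354 without one and to 8559 at 5 FPKM. The share of genes past 1 changed as well, from 1.47% to 10.8% and 0.572%. With a pseudocount of 1 nearly as many genes were tested, 12339, and fewer passed. The cause of the changes between settings was not tested.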

Other observations

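NRG1, chosen after its values were seen, has 20 listed transcripts, of which 8 were above 0 and 2 reached a mean of 1 FPKM. Those 2 had higher values after depletion, while the others above 0, each below a mean of 0.5 FPKM, had ratios of both signs. The first was at 5.88 FPKM with control siRNA and 9.10 after depletion of SNRNP40 (0.63 as a log2 ratio), and the second at 0.994 and 1.57 (0.66). Its share shift was 7.01%, below that of INSR, FGFR1 and DDR1. Different promoters of NRG1 are known to give secreted and membrane-bound forms, and which of them the listed rows are is not given.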
